A study of Mus musculus with 6 samples.

Results

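The hypoxia response genes described here are 10 rows of a table of 25965 gene rows counted by RNA sequencing in 6 mouse cell lines. They were chosen by symbol. Vegfa was included as a reported target of CDK6, a G1-phase kinase that works with D-type cyclins. Ndrg1 was included because its count was low in every CDK6 knockout line, so its difference between the groups is given below as a description without a test. The remaining 8 were taken as genes of the same response, although Vegfb among them is not known as a classical hypoxia target. All 6 lines were BCR-ABL positive, carrying the fusion kinase of the Philadelphia chromosome. The 3 knockout lines (KO1, KO2 and KO3) had been electroporated with the Cas9 plasmid pSpCas9(BB)-2A-GFP(px458)-hCDK6del, which encodes guide RNAs against CDK6, and the 3 wild-type lines (WT1, WT2 and WT3) with the control plasmid pSpCas9(BB)-2A-GFP(px458). GFP-positive cells were plated singly, so each KO line descends from a clone, and loss of CDK6 protein was checked by Western blot, per the labels. The plasmid name reads hCDK6 while the lines are labelled as mouse, and the labels do not say which species' gene the guides match. No oxygen treatment is given in the labels.

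In the hypoxia response, prolyl hydroxylases of the EGLN family mark the transcription factor subunit HIF-1α for destruction while oxygen is present. When oxygen is short, HIF-1α is spared, pairs with ARNT and binds a short core motif beside its target genes. These targets include growth factors for blood vessels, mitophagy receptors and enzymes of glycolysis and collagen folding. HIF-1α is controlled largely at the protein level, which transcript counts do not measure.

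Total counts ran from 17859519 to 20415572 in the KO libraries and from 19060127 to 24108563 in the WT libraries, so that 3 counts corresponded to at most 0.168 CPM (reads scaled by the library total). Library KO2 stood apart. It differed at least 2-fold from the WT mean in 662 genes upward and 887 downward of 10896 tested, against 130 and 321 genes in KO1 and 215 and 309 genes in KO3. Across genes its Pearson correlation was 0.86 with KO1 and 0.845 with KO3, while the other pairs within a group lay between 0.964 and 0.99. Each pair within a group differed by more than counting noise (mean chi-square per gene 6.08 or more). WT2 differed more from WT1 and WT3 (28.3 and 19.9) than WT1 did from WT3 (6.08). The deviations of WT2 from its group mean correlated with those of KO2 at 0.64. The 8 markers of the B lineage summed to 3334 to 4793 CPM in KO and 4172 to 4232 CPM in WT. The targeted transcript, Cdk6, had 42.1, 72.6 and 40.4 CPM in KO1, KO2 and KO3, against 39.4, 45.0 and 55.8 CPM in WT1, WT2 and WT3 (log2 fold change 0.14 ± 0.29 SE, edgeR adjusted p = 0.90). The Cdk6 transcript was thus not lower in KO over all libraries, and its log2 fold change was -0.22 without KO2. A total per gene cannot reveal a small deletion or frameshift, so KO and WT name the libraries as labelled.

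Of the 10 genes, Hif1a, Bnip3l, Kdm3a and P4ha1 differed little between the lines, Egln3 was near 0 and 5 varied more. Ndrg1 was low in every KO line. Vegfa was highest in KO3 and lowest in KO2, Bnip3 was far higher in KO2 than elsewhere, and Egln1 and Vegfb were lowest in KO2. Of the 9 genes that passed the low-count filter, Ndrg1 is left out of the counts of tests. Of the other 8, 0 passed edgeR's quasi-likelihood test at an adjusted p of 0.05, where 0% of all 10896 tested genes passed, and 0 had an unadjusted p under 0.05, where 9.45% of all tested genes did. limma-voom called 0 of the 8, and 0% of all genes. Over all 6 libraries DESeq2, which gave no adjusted p for Bnip3, called 0 higher, against 0.705% of genes, and 0 lower, against 1.24% (1.94% in either direction). It also called 0 of the 8 without KO2 (5.95% of genes) and without KO2 and WT2 (2.89%). In single KO libraries, Ndrg1 and Bnip3 lay at least 2-fold below the WT mean in KO1, where 2.95% of tested genes did. Ndrg1 did so in KO2 (8.14% of genes) and in KO3 (2.84%). Bnip3 lay at least 2-fold above the WT mean in KO2 (6.08% of genes) and Vegfa in KO3 (1.97%). The median log2 fold change of all 9 was 0.04, against 0.01 over all tested genes.

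**Figure D1:**
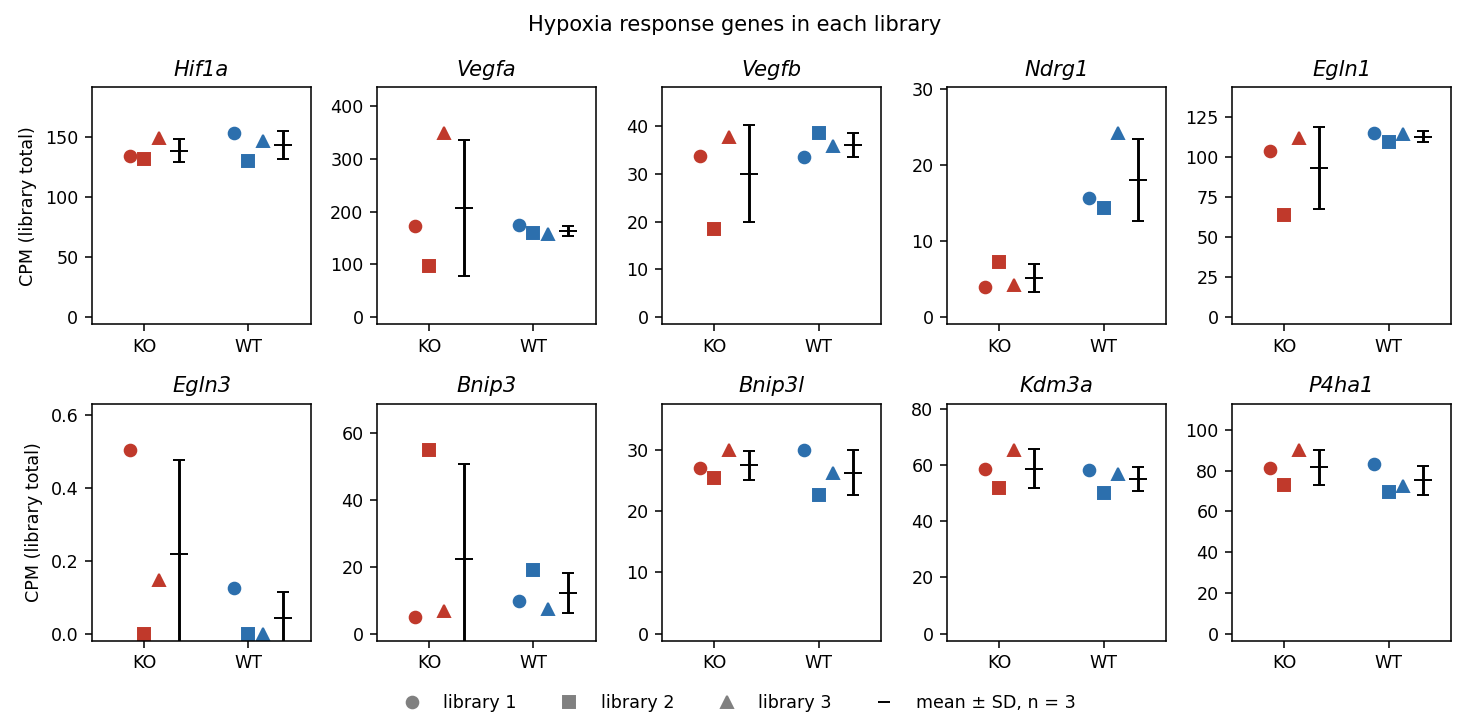
Level of each of the 10 genes in CPM (vertical axis, own scale for each gene) in the KO (red) and WT (blue) libraries, 1 point per library, with the mean and SD of 3 libraries beside them; SD bars that would pass below 0 run off the axis. The KO points of Ndrg1 (3.98 to 7.19 CPM) all lie under its WT points (14.3 to 24.2 CPM), while Vegfa and Bnip3 each have 1 KO library far above the rest.

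Hif1a, the gene of the oxygen-regulated HIF subunit, lies on chromosome 12 (GRCm38, 73901324 to 73947554). It had 134.3, 131.7 and 149.2 CPM in KO1, KO2 and KO3, against 153.0, 130.0 and 146.2 CPM in WT1, WT2 and WT3. The groups overlapped (log2 fold change -0.07 ± 0.08 SE, edgeR adjusted p = 0.81, 95% interval -0.27 to 0.13). Its largest KO value was 1.13 times its smallest, a spread reached or passed by 83.5% of tested genes in the same libraries. Its WT spread of 1.18-fold was reached or passed by 43.8% of tested genes.

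Egln1 encodes PHD2, the main oxygen-sensing prolyl hydroxylase and itself a HIF target (chromosome 8, 124908587 to 124949254). It had 103.9, 63.9 and 111.7 CPM in KO1, KO2 and KO3, against 114.8, 109.1 and 114.3 CPM in WT1, WT2 and WT3. The WT libraries were within 1.05-fold of each other, a spread reached or passed by 86.6% of tested genes. KO2 alone lay clearly below them. Over all libraries the log2 fold change stood at -0.30 ± 0.19 SE (edgeR adjusted p = 0.64, 95% interval -0.77 to 0.16), and at -0.11 without KO2. By CPM on library totals KO3 lay within the WT range. By TMM-scaled CPM every KO library was under every WT library, so that the separation depends on the scaling. Leaving aside Ndrg1, which was chosen for being low in every KO line, 0 of 8 genes had every KO library lowest by library totals, where 8.68% of all tested genes did, and 1 of 8, Egln1, by TMM, where 11.0% did. None of the 8 had every KO library highest on either scale, against 10.6% and 8.51% of all tested genes.

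Egln3 encodes PHD3, a second HIF-induced hydroxylase (chromosome 12, 54178981 to 54203874). It had 9, 0 and 3 counts in KO1, KO2 and KO3 and 3, 0 and 0 counts in WT1, WT2 and WT3. All libraries but KO1 were at or under the floor of 3 counts. Egln3 was the 1 gene of the 10 that did not pass the low-count filter, and no fold change is given.

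Vegfa encodes the main growth factor of blood vessels (chromosome 17, 46016993 to 46032377). It had 173.7, 97.0 and 349.0 CPM in KO1, KO2 and KO3, against 174.7, 158.8 and 157.4 CPM in WT1, WT2 and WT3. KO1 was level with the WT lines, KO2 was 1.64-fold below the WT mean and KO3 2.04-fold above it, so the KO lines lay on both sides of a narrow WT range. The means were 207 ± 129 CPM in KO and 164 ± 9.59 CPM in WT (SD, n = 3 each). Vegfa had a log2 fold change of 0.30 ± 0.43 SE (edgeR adjusted p = 0.85, 95% interval -0.76 to 1.35). Permuting log2 CPM over the libraries, in an exact test taken two-sided, gave p = 0.8, where 0.1 is the smallest that 3 against 3 libraries allow. The direction rested on single lines: the log2 fold change was -0.28 without KO3 and 0.63 without KO2. The KO spread of 3.60-fold was reached or passed by 12.3% of tested genes, and the WT spread of 1.11-fold by 63.0%.

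Vegfb encodes a related ligand that is not known as a classical hypoxia target (chromosome 19, 6982472 to 6987651). It had 33.8, 18.5 and 37.7 CPM in KO1, KO2 and KO3, against 33.6, 38.5 and 35.9 CPM in WT1, WT2 and WT3. As with Vegfa, KO2 was the lowest library, at 1.87-fold below the WT mean. Unlike Vegfa, Vegfb in KO3 lay within the WT range. The ratio of Vegfa to Vegfb counts was 5.15, 5.25 and 9.27 in KO1, KO2 and KO3, against 5.21, 4.13 and 4.39 in WT1, WT2 and WT3. The log2 fold change of Vegfb was -0.30 ± 0.25 SE (edgeR adjusted p = 0.73, 95% interval -0.91 to 0.32) and -0.05 without KO2.

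Ndrg1 encodes a cytoplasmic protein induced by hypoxia and by differentiation, and is known to be repressed by MYC-family factors (chromosome 15, 66929318 to 66969641). It had 3.98, 7.19 and 4.26 CPM in KO1, KO2 and KO3, against 15.6, 14.3 and 24.2 CPM in WT1, WT2 and WT3. These were 71, 145 and 87 counts in KO and 376, 273 and 489 counts in WT, well above the floor. Every KO library lay below every WT library, by 4.13-fold, 2.29-fold and 3.94-fold against the WT mean. The means were 5.14 ± 1.78 CPM in KO and 18.0 ± 5.35 CPM in WT (SD, n = 3 each), and the log2 fold change was -1.81 ± 0.35 SE. It was -2.17 without KO2, the KO line with the most Ndrg1. In a culture, fewer cells expressing a gene and less RNA per cell cannot be told apart. Lyz2, a lysozyme of myeloid cells, was among the 5 genes most like Ndrg1 over the 6 libraries. It had 12.4, 15.3 and 15.2 CPM in KO1, KO2 and KO3, against 38.7, 26.8 and 37.0 CPM in WT1, WT2 and WT3. Itgam, the other tested myeloid marker, had 29.4, 0.248 and 4.90 CPM in KO1, KO2 and KO3, against 4.73, 1.15 and 3.41 CPM in WT1, WT2 and WT3. It was highest in KO1, and the groups overlapped. The whole list of 8 myeloid markers summed to 16.0 to 43.4 CPM in KO and 28.8 to 45.3 CPM in WT, with Itgam making up most of the KO1 sum. Its members Elane, S100a8 and S100a9 were at 0 in every library. The part of these markers in the Ndrg1 difference was not tested. Of the other NDRG genes, Ndrg3 had 88.4, 58.8 and 95.6 CPM in KO1, KO2 and KO3, against 81.0, 80.8 and 87.0 CPM in WT1, WT2 and WT3 (log2 fold change -0.06 ± 0.16 SE). Ndrg2 was at 0 throughout and Ndrg4 at most 0.694 CPM.

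Bnip3, a mitophagy receptor of the outer mitochondrial membrane and a textbook HIF target, lies on chromosome 7 (138890836 to 138909506). It had 4.82, 55.1 and 6.71 CPM in KO1, KO2 and KO3, against 9.87, 19.0 and 7.46 CPM in WT1, WT2 and WT3. In each group the library numbered 2 was the highest, KO2 was 4.86-fold above the WT mean, and KO1 and KO3 lay below all WT libraries. The KO spread of 11.4-fold was reached or passed by 6.41% of tested genes and the WT spread of 2.55-fold by 5.34%, so Bnip3 varied more than most genes in both groups. Over all libraries the log2 fold change stood at 0.89 ± 1.03 SE (edgeR adjusted p = 0.81, 95% interval -1.67 to 3.45). Without KO2 it was -1.12, and without KO2 and WT2 -0.63. DESeq2 gave no adjusted p for Bnip3 over all 6 libraries. The 49 expressed genes within 5 Mb of Bnip3 had a median log2 ratio of 0.18 in KO2 against the WT mean, where Bnip3 itself was at 2.28. In KO2 the 7 around Ndrg1 had a median of 0.14, the 53 around Vegfa of -0.19 and the 55 around Egln1 of -0.05. Around Ndrg1 the median was -0.10 in KO1 and 0.10 in KO3, where Ndrg1 itself was at -2.05 and -1.98. Around Vegfa it was 0.06 in KO3, where Vegfa itself was at 1.03.

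Bnip3l, which encodes NIX, the paralog of BNIP3 that clears mitochondria from maturing red cells, did not share this pattern (chromosome 14, 66985238 to 67008877). It had 27.0, 25.4 and 30.0 CPM in KO1, KO2 and KO3, against 29.9, 22.6 and 26.3 CPM in WT1, WT2 and WT3. Its log2 fold change of 0.04 ± 0.13 SE was close to 0 (edgeR adjusted p = 0.94, 95% interval -0.28 to 0.37). The ratio of Bnip3 to Bnip3l counts was 0.178, 2.17 and 0.224 in KO1, KO2 and KO3, against 0.330, 0.842 and 0.284 in WT1, WT2 and WT3. KO2 was the 1 library with more Bnip3 than Bnip3l counts.

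**Figure D2:**
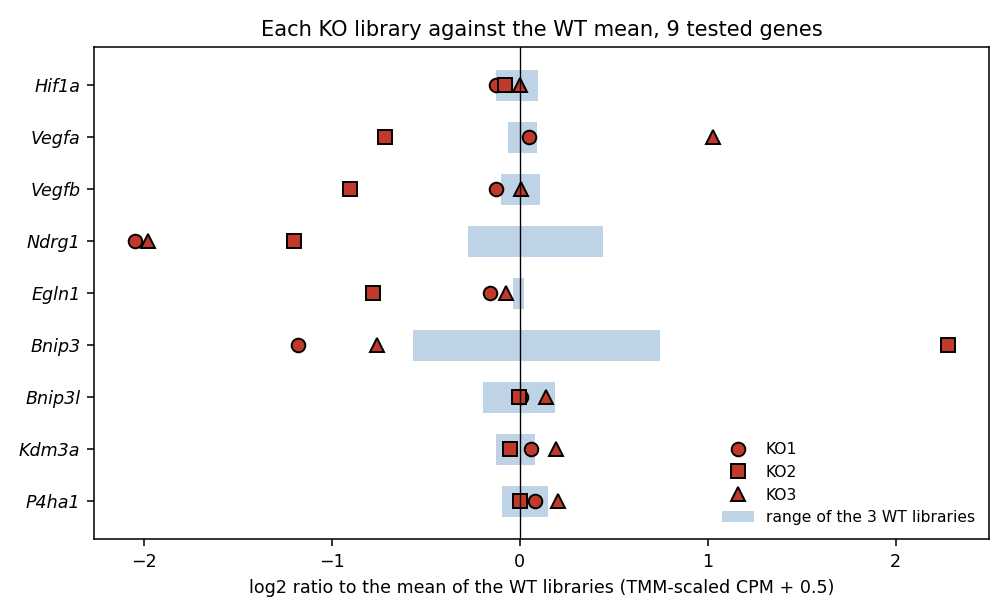
Log2 ratio of each KO library to the mean of the WT libraries (horizontal axis, TMM-scaled CPM with an offset of 0.5) for the 9 tested genes, with a blue bar from the lowest to the highest WT library. Ndrg1 lies left of the bar in all 3 KO lines, Bnip3 is at 2.28 in KO2 and at -1.18 and -0.76 in KO1 and KO3, and Vegfa is at 1.03 in KO3 and -0.71 in KO2.

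Kdm3a encodes a HIF-induced demethylase of histone H3 lysine 9 (chromosome 6, 71588970 to 71632990). It had 58.9, 51.8 and 65.6 CPM in KO1, KO2 and KO3, against 58.3, 50.0 and 56.9 CPM in WT1, WT2 and WT3 (log2 fold change 0.07 ± 0.10 SE, edgeR adjusted p = 0.85, 95% interval -0.18 to 0.31). P4ha1 encodes the catalytic subunit of collagen prolyl 4-hydroxylase (chromosome 10, 59323197 to 59373304). It had 81.5, 73.1 and 90.3 CPM in KO1, KO2 and KO3, against 83.5, 69.7 and 72.4 CPM in WT1, WT2 and WT3 (log2 fold change 0.10 ± 0.10 SE, edgeR adjusted p = 0.79, 95% interval -0.15 to 0.34). For both genes KO3 was the highest library, the groups overlapped and the intervals leave room for small changes in either direction.

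Per kilobase of annotated exon, Vegfa was the most abundant of the 10 transcripts, with 58.6 ± 36.7 CPM per kb in KO and 46.4 ± 2.72 CPM per kb in WT (SD, n = 3 each). In WT it was followed by Egln1 (31.4 ± 0.876), Vegfb (28.1 ± 1.91) and Hif1a (26.3 ± 2.17). Vegfb and Hif1a overlapped between WT libraries, whereas Egln1 lay above both in each of them. P4ha1 (18.3 ± 1.77) and Kdm3a (11.0 ± 0.881) came next. Bnip3l (8.01 ± 1.11), Bnip3 (6.54 ± 3.30) and Ndrg1 (6.24 ± 1.85) overlapped, and Egln3 was near 0. In KO2 Bnip3 reached 29.7 CPM per kb, above Vegfa at 27.5.

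The core motif to which HIF binds reads ACGTG or GCGTG, and it was searched on both strands in RefSeq promoter windows of 300 bases (250 before to 50 after a transcription start, GRCm38.p6). Windows were at hand for 8 of the 10 genes, all but Ndrg1 and Bnip3l. The core was found in 43.8% of the 32851 windows of all genes. In the window nearest the gene's annotated 5′ end 7 of the 8 genes had it, the exception being Vegfa. For Hif1a this window, the only one at hand, lay 6543 bases from that end. The Bnip3 window held 5 matches, of which a pair are the 2 strands of 1 palindrome, CACGTG, also known as an E-box. A count of 5 or more was found in 1.66% of all windows. Egln1 and Vegfb held 2 matches each, which 20.6% of windows reached or passed. The first Vegfa window held none, while that of an internal start held 2. The known hypoxia response element of Vegfa lies further upstream than this window. The AP-1 motif TGANTCA was in neither Vegfa window and in 7.81% of all windows. The windows of the 8 genes were 49.0% to 86.0% G and C, and windows of like composition were not compared. A match describes letters and does not show binding. The windows of Bnip3, Egln1, Vegfa and Vegfb are shown because these genes departed from the WT range in KO2, Bnip3 upward and the others downward, while differing in how many cores they hold. Capitals mark the core on either strand.
Bnip3 (chr7:138909457-138909756, minus strand): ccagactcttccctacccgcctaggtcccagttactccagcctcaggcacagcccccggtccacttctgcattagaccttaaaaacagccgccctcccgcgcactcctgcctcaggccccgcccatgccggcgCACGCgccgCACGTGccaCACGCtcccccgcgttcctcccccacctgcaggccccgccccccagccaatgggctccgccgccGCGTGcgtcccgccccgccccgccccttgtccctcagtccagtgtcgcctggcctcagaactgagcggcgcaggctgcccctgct
Egln1 (chr8:124949205-124949504, minus strand): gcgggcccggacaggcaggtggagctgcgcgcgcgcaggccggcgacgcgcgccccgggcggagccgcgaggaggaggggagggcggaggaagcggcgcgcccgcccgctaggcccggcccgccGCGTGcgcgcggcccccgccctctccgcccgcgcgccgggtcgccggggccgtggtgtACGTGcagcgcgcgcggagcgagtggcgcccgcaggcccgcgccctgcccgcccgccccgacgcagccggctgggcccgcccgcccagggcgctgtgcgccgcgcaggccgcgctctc
Vegfa (chr17:46032328-46032627, minus strand): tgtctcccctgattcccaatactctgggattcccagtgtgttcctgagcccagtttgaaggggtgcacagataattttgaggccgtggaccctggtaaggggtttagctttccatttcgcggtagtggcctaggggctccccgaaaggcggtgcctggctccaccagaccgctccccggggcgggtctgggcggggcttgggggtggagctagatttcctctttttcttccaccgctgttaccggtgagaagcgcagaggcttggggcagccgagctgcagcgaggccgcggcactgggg
Vegfb (chr19:6987602-6987901, minus strand): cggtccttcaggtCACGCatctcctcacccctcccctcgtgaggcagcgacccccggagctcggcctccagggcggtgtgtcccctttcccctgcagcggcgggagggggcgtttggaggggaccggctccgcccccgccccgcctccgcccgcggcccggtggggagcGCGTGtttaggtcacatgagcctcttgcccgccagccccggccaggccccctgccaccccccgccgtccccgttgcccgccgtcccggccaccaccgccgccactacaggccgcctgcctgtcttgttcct

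**Figure D3:**
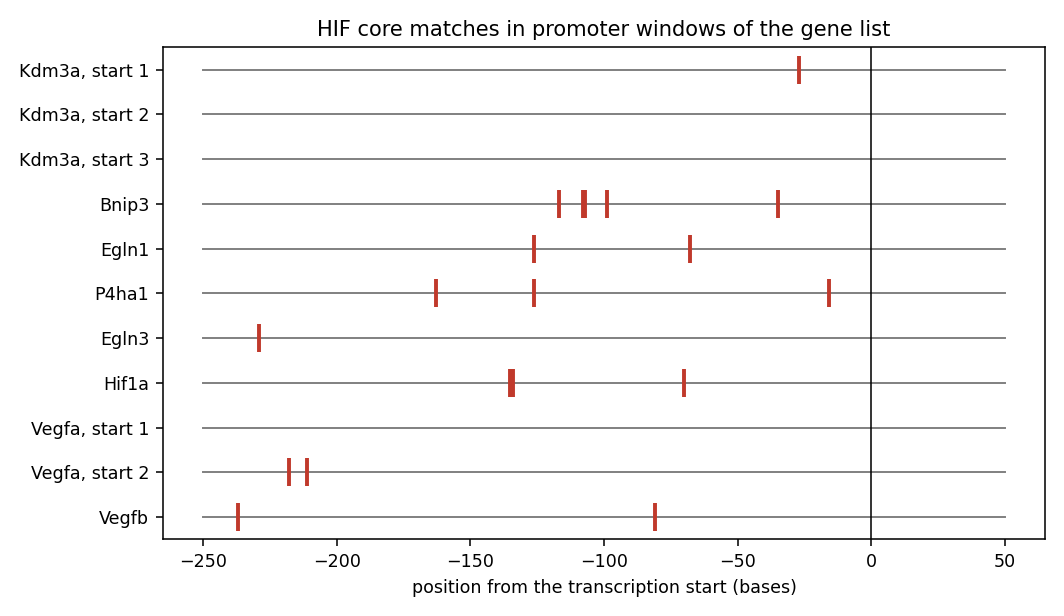
Starts of HIF core matches (red ticks, ACGTG or GCGTG on either strand) along each promoter window of the 8 genes, in bases from the transcription start, with a row for each annotated start. Bnip3 holds 5 matches between -117 and -35 and the first Vegfa start holds none.

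The other genes of the pathway were read from 10 lists with 124 genes, of which 100 were tested. Of these 0 passed edgeR and 9 had an unadjusted p under 0.05 (9.45% of all genes did). limma-voom called 0 of them and DESeq2 3, against 1.94% of all genes: Ddit4 and Kdm4a higher and Higd1a lower in KO. The log2 fold changes were positive in 50 and negative in 50, with a median of -0.01 against 0.01 over all tested genes.

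Of the HIF subunits and oxygen sensors 13 of 16 were tested, with a median log2 fold change of -0.07, and 1 had an unadjusted p under 0.05. This was Elob, an adaptor of the VHL ubiquitin ligase, at 80.1 ± 1.15 CPM in KO and 91.85 ± 7.02 CPM in WT (log2 fold change -0.22 ± 0.08 SE, edgeR adjusted p = 0.53). Eloc, its partner, and Ep300, a HIF coactivator, had log2 fold changes of -0.20 and 0.17.

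Of the HIF targets outside glycolysis 23 of 32 were tested, with a median of -0.07. Ddit4, an inhibitor of mTORC1 induced by hypoxia and other stresses, had 35.7, 52.2 and 41.6 CPM in KO1, KO2 and KO3, against 16.7, 24.3 and 16.3 CPM in WT1, WT2 and WT3. Every KO library lay above every WT library (log2 fold change 1.16 ± 0.24 SE, edgeR adjusted p = 0.48, DESeq2 adjusted p = 0.00259). Higd1a, a mitochondrial protein of the hypoxia response, had 22.8, 21.9 and 22.4 CPM in KO1, KO2 and KO3, against 31.6, 31.0 and 28.2 CPM in WT1, WT2 and WT3. Its KO libraries were close to each other and below all WT libraries (log2 fold change -0.46 ± 0.10 SE, edgeR adjusted p = 0.48, DESeq2 adjusted p = 0.012). Among HIF targets, Ddit4 and Higd1a thus differed in opposite directions. Cxcr4, the receptor of the chemokine CXCL12, had 144.1, 100.3 and 55.5 CPM in KO1, KO2 and KO3, against 144.8, 178.1 and 167.1 CPM in WT1, WT2 and WT3. Its KO libraries were all below its WT libraries, KO1 by a narrow margin (log2 fold change -0.73 ± 0.35 SE, edgeR adjusted p = 0.56).

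Of the HIF targets of glycolysis 21 of 22 were tested, with a median of -0.08 and 4 at an unadjusted p under 0.05. By CPM on library totals 5 of the 21 had every KO library lowest, against 8.68% of all tested genes. This count depends on the scaling. Gbe1 (23.15 CPM in KO2, 23.31 in WT1) and Pfkfb4 (6.39 in KO2, 6.57 in WT3) were among the 5 by narrow margins. These margins are smaller than the differences of the TMM factors (0.968 in KO2, 0.994 in WT1, 0.998 in WT3). By TMM-scaled CPM, Gbe1 and Pfkfb4 thus drop out of the 5, while 11.0% of all tested genes had every KO library lowest. Nothing is therefore read from the count of 5. By library totals 1 of the 21, Gys1, had every KO library highest, against 10.6% of all tested genes. Aldoa, the aldolase, had 736 ± 75.0 CPM in KO and 881 ± 46.15 CPM in WT (log2 fold change -0.28 ± 0.08 SE), and Pkm, the pyruvate kinase, 1044 ± 46.1 CPM in KO and 1204 ± 44.5 CPM in WT (-0.23 ± 0.07). Gys1, the glycogen synthase, had 58.4 ± 3.60 CPM in KO and 43.9 ± 4.96 CPM in WT (0.39 ± 0.11). The edgeR adjusted p of these 3 was 0.48, and DESeq2 called none of them over all 6 libraries.

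The 44 tested HIF targets had a median log2 ratio to the WT mean of -0.11 in KO1, -0.09 in KO2 and -0.04 in KO3, against -0.00036, -0.017 and -0.0055 over all tested genes. In KO2, where Bnip3 was high, 5 of the 44 were at least 2-fold above the WT mean (Ankrd37, Plod1, Ddit4, Hk1 and Pfkp), where 6.08% of all tested genes were, and 3 at least 2-fold below (Car9, Loxl2 and Bhlhe40), where 8.14% were. In KO3, where Vegfa was high, 3 of the 44 were at least 2-fold above (Ddit4, Bhlhe40 and Insig2), against 1.97% of all tested genes, and 2 at least 2-fold below (Cxcr4 and Angptl4), against 2.84%. In KO1 1 of the 44 was at least 2-fold above (Loxl2), against 1.19% of all genes, and 1 at least 2-fold below (Angptl4), against 2.95%. Loxl2 was low and uneven in WT, with 7.05, 0.21 and 1.73 CPM in WT1, WT2 and WT3. Its 4.48 CPM in KO1 lay inside that range, and it was at 0 in KO2. Bhlhe40, a repressor of the circadian clock, had 25.1, 5.95 and 43.1 CPM in KO1, KO2 and KO3, against 15.9, 15.9 and 16.7 CPM in WT1, WT2 and WT3. It was thus lowest in KO2 and highest in KO3, the order also seen for Vegfa. These genes were picked by their values and each ratio rests on 1 library.

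**Figure D4:**
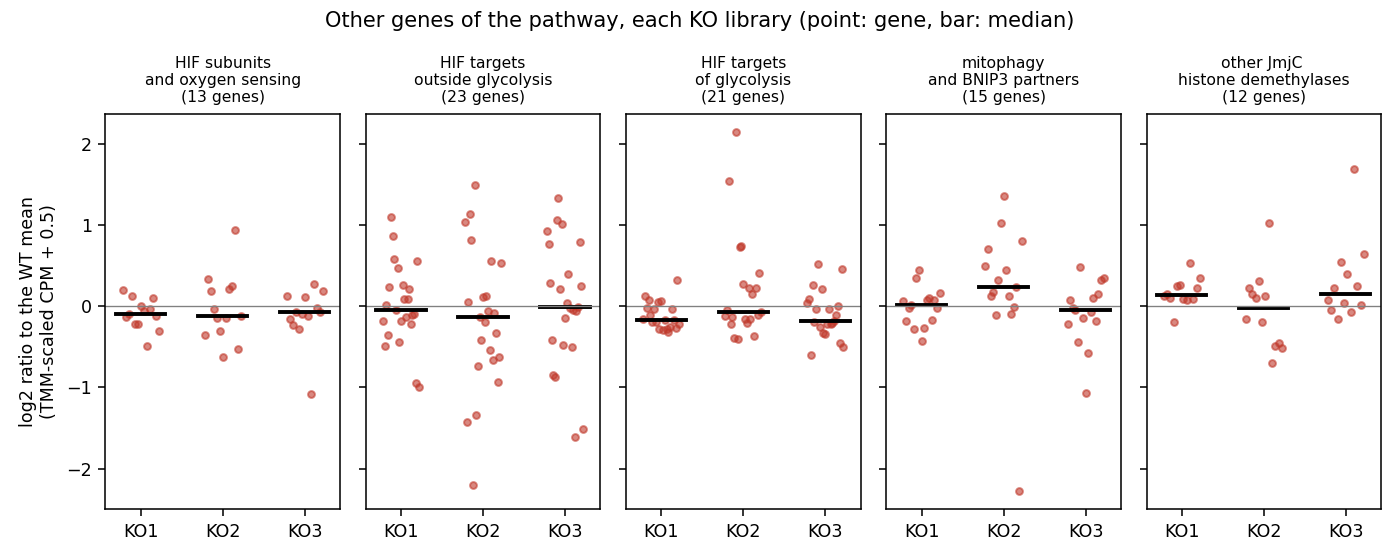
Log2 ratio of each gene (points) of 5 pathway lists to the WT mean in KO1, KO2 and KO3 (TMM-scaled CPM with an offset of 0.5), with the median of the list as a bar. The medians lie between -0.18 and 0.24, and single genes scatter more widely in KO2 and KO3 than in KO1.

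Of the other VEGF ligands and receptors 2 of 8 were tested. Vegfc had 20.1, 13.9 and 16.6 CPM in KO1, KO2 and KO3, against 17.3, 17.7 and 16.2 CPM in WT1, WT2 and WT3. Pgf, placental growth factor, had 4.20, 13.8 and 0.539 CPM in KO1, KO2 and KO3, against 3.15, 5.35 and 3.51 CPM in WT1, WT2 and WT3. Pgf was highest in KO2 and lowest in KO3, the reverse of Vegfa (log2 fold change 0.64 ± 1.04 SE, edgeR adjusted p = 0.87). Vegfd and Kdr, the gene of the main VEGF receptor, were at 0 in every library.

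Of the factors known to act at the Vegfa promoter 8 of 9 were tested, with a median of 0.04 and 1 at an unadjusted p under 0.05. This was Fos, which had 0.728, 0.694 and 0.392 CPM in KO1, KO2 and KO3, against 1.29, 1.31 and 1.14 CPM in WT1, WT2 and WT3 (log2 fold change -1.05 ± 0.38 SE, edgeR adjusted p = 0.51). Jund had 117.5 ± 24.4 CPM in KO and 150.5 ± 26.3 CPM in WT. Stat3 had 101.5, 174.3 and 96.3 CPM in KO1, KO2 and KO3, against 82.4, 93.8 and 83.7 CPM in WT1, WT2 and WT3. By CPM on library totals every KO library lay above every WT library, by a small margin outside KO2. The margin between KO3 and WT2 is smaller than the difference of their TMM factors (1.036 and 0.985). The separation of Stat3 thus depends on the scaling. Jun, the AP-1 subunit named here after its values were seen, had 178.4, 16.9 and 113.8 CPM in KO1, KO2 and KO3, against 131.5, 62.2 and 149.3 CPM in WT1, WT2 and WT3. Jun was thus lowest in KO2, where Vegfa was also lowest, but not highest in KO3. Among the WT libraries Jun was lowest in WT2, where Vegfa was not. Junb, another AP-1 subunit of the list, went the other way in KO2. It had 18.4, 58.1 and 28.0 CPM in KO1, KO2 and KO3, against 20.6, 35.05 and 20.5 CPM in WT1, WT2 and WT3.

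All 5 listed regulators of Ndrg1 were tested, with a median of -0.03. Egr1, an immediate early factor, had 17.3, 16.6 and 58.5 CPM in KO1, KO2 and KO3, against 11.4, 13.5 and 11.8 CPM in WT1, WT2 and WT3 (log2 fold change 1.29 ± 0.52 SE, edgeR adjusted p = 0.53). Every KO library lay above every WT library, and KO3 far above. Myc had 372.5, 358.5 and 585.5 CPM in KO1, KO2 and KO3, against 355.5, 389.9 and 343.0 CPM in WT1, WT2 and WT3. Mycn had 95.2 ± 18.7 CPM in KO and 103.7 ± 8.03 CPM in WT. The groups overlapped for both.

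Of the mitophagy genes and BNIP3 partners 15 of 16 were tested, with a median of 0.05 and 0 at an unadjusted p under 0.05. Bcl2l1, which encodes BCL-XL, had a log2 fold change of 0.46, and the autophagy adaptors Gabarapl1 and Gabarapl2 of -0.27 and 0.42. Of the other JmjC histone demethylases 12 of 12 were tested, with a median of 0.13. Kdm4a had 151.6, 149.4 and 188.1 CPM in KO1, KO2 and KO3, against 121.5, 127.5 and 122.7 CPM in WT1, WT2 and WT3 (log2 fold change 0.37 ± 0.09 SE, edgeR adjusted p = 0.48, DESeq2 adjusted p = 0.0349), while Kdm2a and Kdm4c were at 0.16 and 0.21. Of the collagen prolyl and lysyl hydroxylases 4 of 6 were tested, with a median of 0.07. P4hb, the partner subunit of P4HA1 in collagen prolyl 4-hydroxylase, had 550.5 ± 28.1 CPM in KO and 609.5 ± 8.92 CPM in WT (-0.17 ± 0.07), while Plod3 and Plod1 had log2 fold changes of -0.13 and 0.40.

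The genes whose log2 CPM was most like that of Vegfa over the 6 libraries, among 3630 genes compared, were Nars, a tRNA synthetase, Ormdl3, a regulator of sphingolipid synthesis, Trib3, a pseudokinase, Stk40 and Gpt2, a mitochondrial alanine aminotransferase (Pearson r 0.984 to 0.992). Trib3 had 11.8, 3.92 and 73.1 CPM in KO1, KO2 and KO3, against 12.3, 13.3 and 12.7 CPM in WT1, WT2 and WT3. Gpt2 had 21.8, 6.64 and 125.8 CPM in KO1, KO2 and KO3, against 17.8, 22.9 and 17.2 CPM in WT1, WT2 and WT3. Both were lowest in KO2, highest in KO3 and narrow in WT, over a wider range than Vegfa. Without KO2 r was 0.978 to 0.988 for the 5, but their ranks fell to 28, 30, 40, 18 and 50 in the order named. Vegfa was then far from the rest in KO3 alone, so these r values rest largely on that library. The genes most like Ndrg1 were Lhpp, a phosphatase, Card6, Lyz2, 6230427J02Rik and Neurl1b (r 0.949 to 0.968, and 0.952 to 0.982 without KO2). Lhpp had 19.5, 22.2 and 22.2 CPM in KO1, KO2 and KO3, against 34.4, 32.8 and 35.2 CPM in WT1, WT2 and WT3. These correlations rest on 6 libraries, 1 of which stood apart, and describe likeness of profile alone.

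**Figure D5:**
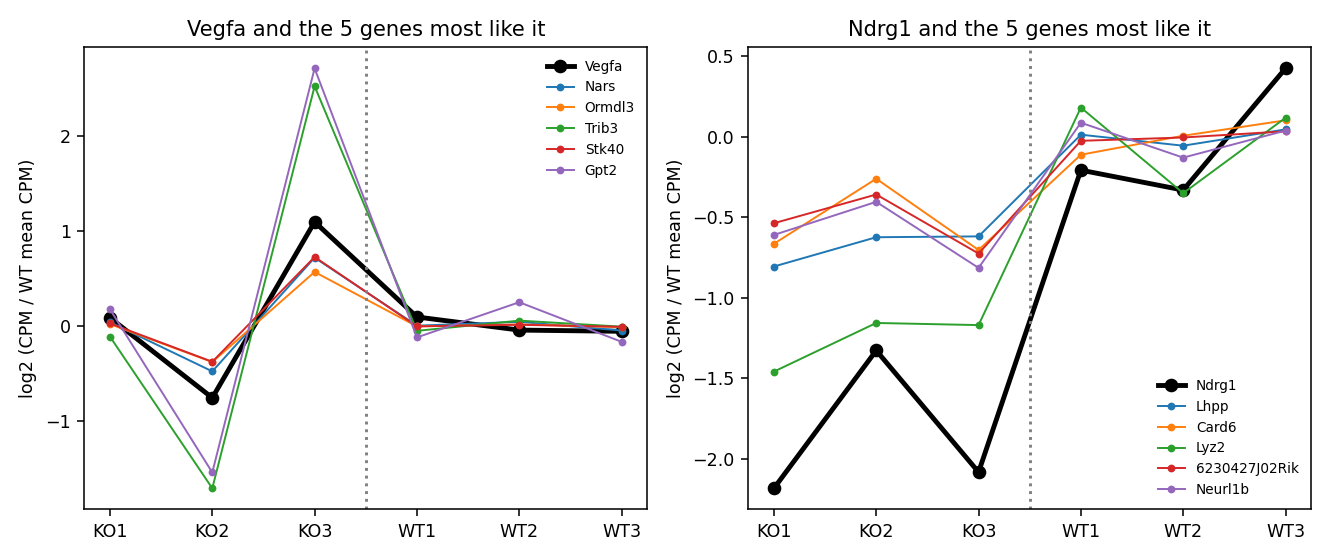
Log2 of CPM over the WT mean CPM (vertical axis) in each library for Vegfa (left) and Ndrg1 (right), in black, with the 5 genes most like each in colour. The profiles on the left peak in KO3 and dip in KO2, and those on the right lie lower in the 3 KO libraries than in the 3 WT libraries.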

How the data were processed

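The authors deposited a single table of raw counts per gene symbol, with 1 column for each of the 6 libraries. RNA was prepared with a TruSeq kit, per the labels' protocols. Per the submitters' processing notes the tools were Trim Galore, STAR and DESeq2 and the build GRCm38. Their roles and versions, how reads were counted, and with which annotation and strand, were not stated in the sources used here, and reads of overlapping genes could not be told apart. The members and gene lists were chosen with earlier results of these data known.

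The main test was edgeR 4.0.16 (R 4.3.3) on all 6 libraries: TMM scaling, filterByExpr, robust quasi-likelihood F test, two-sided, Benjamini-Hochberg adjusted over 10896 genes, threshold 0.05. Alternatives were DESeq2 1.42.0, limma-voom 3.58.1, other scalings and filters, a block for replicate number and leaving out libraries. The tests were checked on simulated data, which held no library that stood apart as KO2 did. DESeq2 gave no adjusted p for 14753 rows. Nothing in the labels says that lines of a group were derived separately, so p-values measure the spread between these libraries. CPM used library totals. Ratios of single KO libraries used TMM-scaled CPM with an offset of 0.5. Exon lengths came from GENCODE vM21 and locations from RefSeq, both GRCm38. Floors cover counting error only.

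Named genes were Cdk6, the 10 members, up to 3 genes of each list with the smallest edgeR p, and the 5 genes most correlated with Vegfa and with Ndrg1 (mean log2 CPM of at least 3, SD of at least 0.2, prior count 2). Others were chosen after their values were seen. KO and WT share replicate numbers. Deviations from the group mean correlated at 0.33, 0.64 and 0.46 for numbers 1, 2 and 3, each above the criterion of 0.1. Deviations within a group of 3 cancel out, so likeness of KO2 and WT2 alone raises the correlations among numbers 1 and 3. Passing the criterion therefore does not show pairing. The block was fitted as an alternative, and the main test left it out. KO1 correlated more with WT3 (0.36) and KO3 nearly as much with WT1 (0.41), so numbers 1 and 3 were not told apart.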

Additional observations from a re-analysis of the deposited data

How the results depend on the processing

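DESeq2 moved the counts of calls: over all genes it called 218 where edgeR called 0, with 684 (5.95% of genes tested) without KO2 and 340 (2.89%) without KO2 and WT2. It called 1 of the members in each of these fits, namely Ndrg1, chosen for this difference, so that nothing is read from it, and 3, 15 and 4 of the pathway genes. The other alternatives called 0. Without KO2 the 15 pathway calls of DESeq2 were 6 higher and 9 lower in KO, Aldoa, Pkm and P4hb among the lower. None of these named genes was called over all 6 libraries or without KO2 and WT2. In the latter fit the 4 calls were Kdm4a, Bhlhe40 and Ddit4 higher and Tpi1 lower. The log2 fold change of Vegfa lay between -0.28 (without KO3) and 0.63 when a library was left out, that of Ndrg1 between -2.17 and -1.55 and that of Cdk6 between -0.22 (without KO2) and 0.31. Without KO2 and WT2 Ndrg1 was at -2.31 in edgeR and in DESeq2. Cdk6 turned to -0.24 there in edgeR, to -0.25 in DESeq2, and to -0.23 in DESeq2 without KO2. Bnip3 turned to -1.12 without KO2 and -0.63 without KO2 and WT2 in both tools, within -1.12 to 1.39 when a library was left out. Near 0, Vegfb turned to 0.0021 (edgeR) and 0.0013 (DESeq2) without KO2 and WT2. Bnip3l, within -0.050 to 0.15 when a library was left out, turned to -0.0055 without KO3, -0.050 without WT2, and -0.019 (edgeR) and -0.020 (DESeq2) without KO2 and WT2. The cause was not tested. Hif1a, Egln1, Kdm3a and P4ha1 kept their direction in all 17 alternatives. With the replicate block the log2 fold changes of Vegfa, Bnip3 and Ndrg1 were 0.12, 0.10 and -1.84, and 0 genes were called, so the block changed no call. Depth limited Egln3, which had at most 9 counts.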
